A study of Mus musculus with 9 samples.

Results

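A set of 8 genes of the nuclear envelope and of chromatin citrullination were followed through neutrophils of mice with pancreatic tumors. They are the lamin genes Lmna, Lmnb1 and Lmnb2, the lamin B receptor gene Lbr, the nucleoskeleton linkers Sun1 and Sun2, and the peptidylarginine deiminase genes Padi2 and Padi4. They were chosen by name, for their place in nuclear lobulation and in the release of neutrophil extracellular traps, and 8 of the 46517 genes listed carry these names. The 9 RNA sequencing libraries were made from sorted neutrophils of C57BL/6 mice at day 27 after orthotopic transplantation of pancreatic ductal adenocarcinoma cells (OT mice), 3 from bone marrow, 3 from blood and 3 from the pancreatic tumor. The transplanted cells were a luciferase-expressing mouse line. Live CD45+ cells without the lineage markers CD3, B220 and NK1.1 were gated on Ly6G and Ly6C, and the labels give the bone marrow cells as Ly6G.hi and the other cells as Ly6G+. Every library was a pool of 5 OT mice, so that p-values measure the spread between pools, and no library from mice without a tumor was analysed here.

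Between 4580807 and 7949367 reads per library fell on genes, and all 8 members had enough reads to be tested among 17714 genes. The 9 neutrophil markers, among them Ly6g, S100a8 and Csf3r, took 44550 to 45980 reads per 1000000 recovered reads (RPM) in bone marrow. They took 34410 to 35170 in blood and 11530 to 13440 in tumor. Markers of the sorted cell type thus had reads in each compartment, at differing levels. The 10 epithelial markers, led by Krt8, took 8.02 to 11.5 RPM in bone marrow, 24.0, 141 and 21.4 in blood and 3858, 2926 and 6259 in tumor. Fibroblast markers reached 1345 to 1605 and acinar markers 447 to 1916 RPM in tumor, against at most 74.7 and 2.78 elsewhere. Of these 3 lists Cldn4, Pdgfra and Amy2a5 had no read in bone marrow, Lum, Pdgfrb and Amy2a5 had none in blood, and every gene had reads in tumor. In bulk samples, fewer cells of a type and less RNA per cell cannot be told apart.

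Lamins form the meshwork beneath the inner nuclear membrane. B-type lamins are made by nearly all cells, whereas lamins A and C, both spliced from Lmna, stiffen the nucleus and are scarce in mature neutrophils. The lamin B receptor ties heterochromatin to the membrane and is needed for the segmented neutrophil nucleus, and SUN1 and SUN2 span the inner membrane to link the lamina with the cytoskeleton. PAD4, encoded by Padi4, converts arginine of histones to citrulline, a step that loosens chromatin during trap release, and PAD2 is a related enzyme. PAD4 acts inside a cell already carrying its protein, so a transcript level is not a measure of trap release.

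In the tumor libraries Lmna RNA was higher, and Lbr, Sun2 and Padi4 RNA lower, than in the libraries of either other compartment. The same libraries had fewer neutrophil marker reads (11530 to 13440 RPM, against at least 34410) and more epithelial marker reads (2926 to 6259 RPM, against at most 141), whose part in these differences was not tested. Relative to the neutrophil markers, whose own levels per cell may differ between compartments, neither Lbr nor Lmnb2 in tumor was below bone marrow. Against blood, Lmna, Lmnb2 and Sun1 were higher in tumor and Lbr, Sun2, Padi2 and Padi4 lower. Thus 3 of 8 members were called higher and 4 lower by limma at an adjusted p under 0.05, where 32.4% of all genes tested were called higher and 20.2% lower. Against bone marrow, 2 members (Lmna and Lmnb1) were higher and 5 (Lmnb2, Lbr, Sun2, Padi2 and Padi4) lower, beside 25.2% and 18.4% of all genes. From bone marrow to blood, 2 members (Lmna and Lmnb1) were higher and 3 (Lmnb2, Sun1 and Padi4) lower, beside 12.6% and 16.3%. The 3 libraries of tumor and of blood did not overlap for 8 of 8 members, as for 59.4% of all genes. The corresponding numbers were 8 of 8 and 55.7% between tumor and bone marrow, and 6 of 8 and 45.2% between blood and bone marrow.

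The median log2 fold change of all genes was 0.50 in tumor against blood and 0.29 in tumor against bone marrow on the authors' scaling of library sizes, and 0.89 and 0.72 on plain library totals. The split of all calls was 5740 higher and 3574 lower against blood (7111 and 2499 on plain totals) and 4469 and 3265 against bone marrow (6063 and 2110 on plain totals). Blood against bone marrow had a median of -0.00 on either scale. Member changes in tumor are therefore to be read against these medians.

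**Figure D1:**
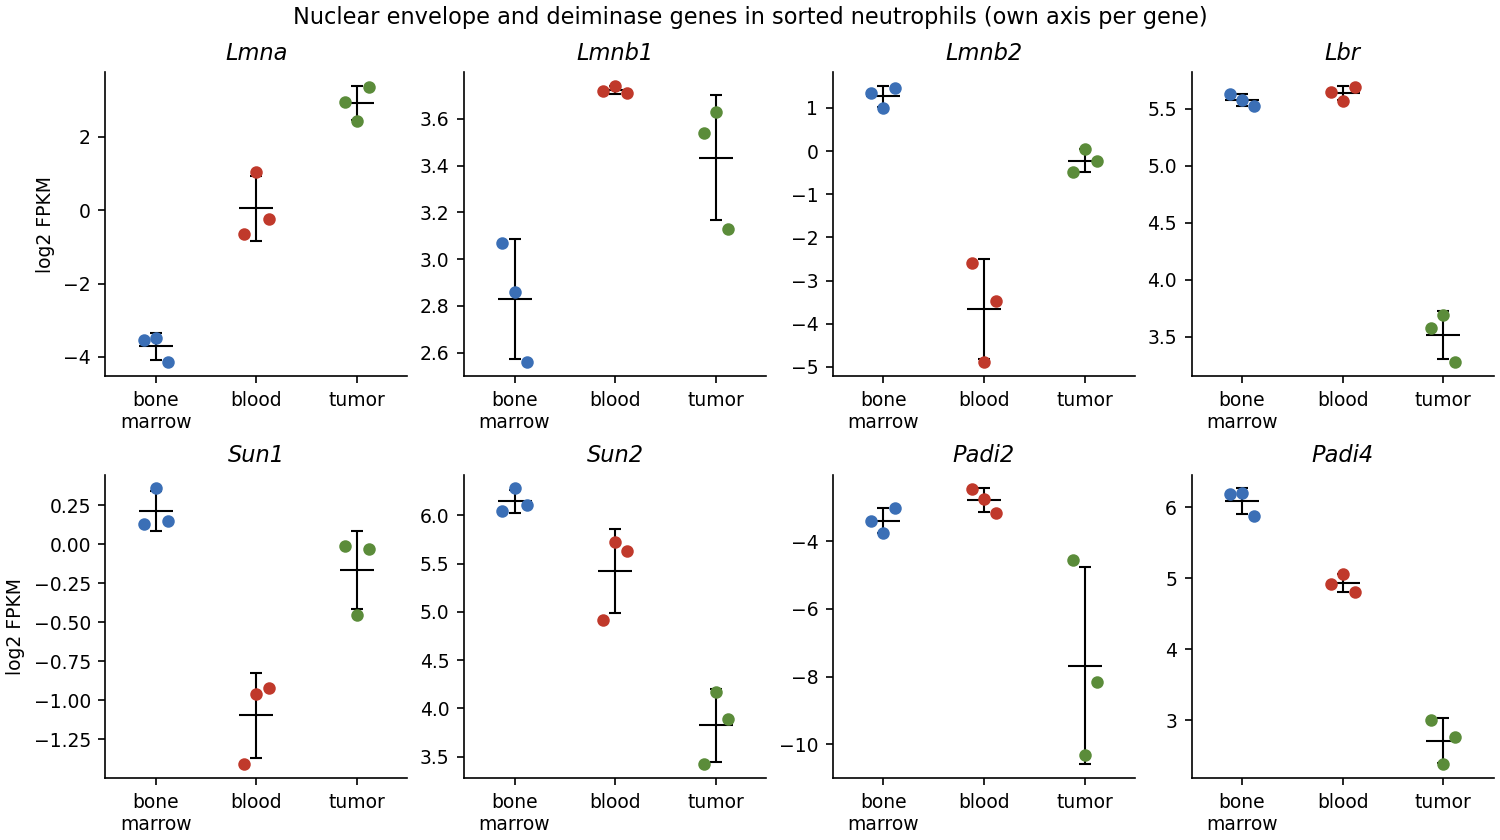
Deposited log2 FPKM of the 8 genes in the 9 libraries, with points for libraries, horizontal bars for means and whiskers for SDs (n = 3 per compartment), each gene on its own axis. Lmna stepped up from bone marrow (-3.71) through blood (0.05) to tumor (2.92), Padi4 stepped down from 6.09 through 4.93 to 2.71, and Lbr was at 5.58 and 5.63 in bone marrow and blood and at 3.52 in tumor.

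**Figure D2:**
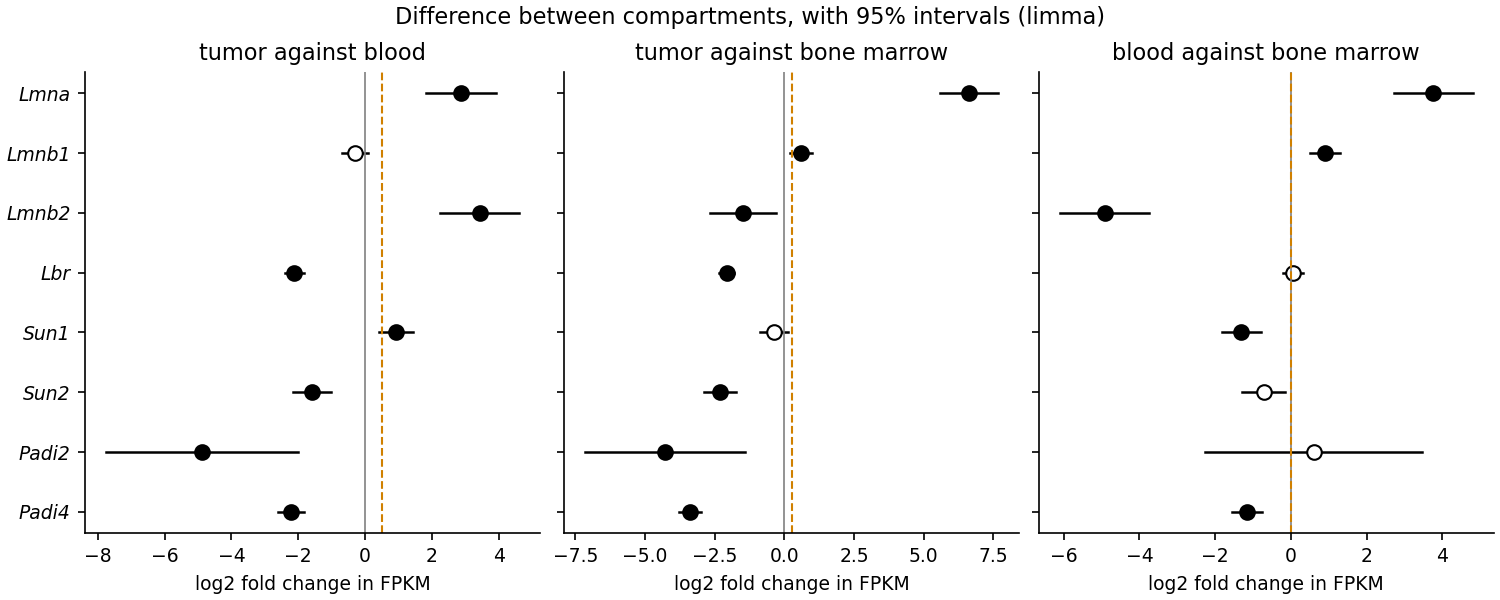
Log2 fold changes in FPKM between compartments with 95% confidence intervals, filled where the adjusted p was under 0.05, and with a dashed line at the median of all genes. Lmna had the highest value of tumor and of blood against bone marrow (6.63 and 3.76), and Padi2, with few reads, had the widest intervals.

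Lmna (ENSMUSG00000028063.14, chromosome 3, 88480147 to 88509956, minus strand, GRCm38) had 17, 15 and 11 reads in the bone marrow libraries, 75, 343 and 118 in blood and 1432, 1223 and 2447 in tumor. On the log2 FPKM scale the bone marrow level was -3.71 ± 0.37, the blood level 0.05 ± 0.88 and the tumor level 2.92 ± 0.47 (SD, n = 3). Every tumor library was above every blood library, and every blood library above every bone marrow library. Lmna was 7.31-fold higher in tumor than in blood (log2 fold change 2.87, SE 0.45, limma adjusted p = 0.000973), 99.4-fold higher in tumor than in bone marrow (6.63, SE 0.45, adjusted p = 1.51e-05) and 13.6-fold higher in blood than in bone marrow (3.76, SE 0.45, adjusted p = 0.000626). The bone marrow level rests on 11 to 17 reads per library, and over the 21 alternatives the log2 fold change ranged from 3.0 to 7.08 in tumor against bone marrow and from 0.96 to 4.11 in blood against bone marrow, lowest with 1 added to FPKM. Reads per gene do not tell lamin A from lamin C.

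Epithelial cells and fibroblasts are known to express Lmna at high levels. The gate on CD45 and Ly6G would remove both, yet their markers had reads in tumor, and within each of the compartments tumor and blood the library with the most epithelial marker reads also had the most Lmna. Lmna took 263, 175 and 376 RPM in the tumor libraries, whose epithelial markers took 3858, 2926 and 6259. In the blood libraries Lmna took 16.4, 50.2 and 21.2 RPM beside 24.0, 141 and 21.4 of epithelial markers. Per 1000 epithelial marker reads there were 68.2, 60.0 and 60.1 Lmna reads in tumor, 682, 355 and 992 in blood and 155 to 263 in bone marrow. The ratio was thus nearly the same in the 3 tumor libraries and lower there than in any blood or bone marrow library. The part of non-neutrophil RNA in the Lmna difference was not tested. Without blood replicate 2, Lmna was higher in blood than in bone marrow by 3.27 on the log2 scale (limma adjusted p = 0.00117). Blood replicates 1 and 3 had 24.0 and 21.4 RPM of epithelial markers, against 8.02 to 11.5 in bone marrow. That fit therefore does not remove epithelial RNA. Summed reads of red cell, platelet and macrophage markers were also higher in blood than in bone marrow. The 7 red cell and platelet markers took 744 to 966 RPM in blood and 30.8 to 53.2 in bone marrow, and 7 of 7 were called higher. The 9 macrophage markers summed to 1237 to 1412 RPM in blood and 393 to 414 in bone marrow, with 3 called higher and 1 lower. Csf1r had the most of these reads, 16795 over the blood libraries and 5822 over those of bone marrow. The median log2 fold change of the 9 genes was -0.46. The part of red cell, platelet and macrophage RNA in the Lmna difference was not tested.

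**Figure D3:**
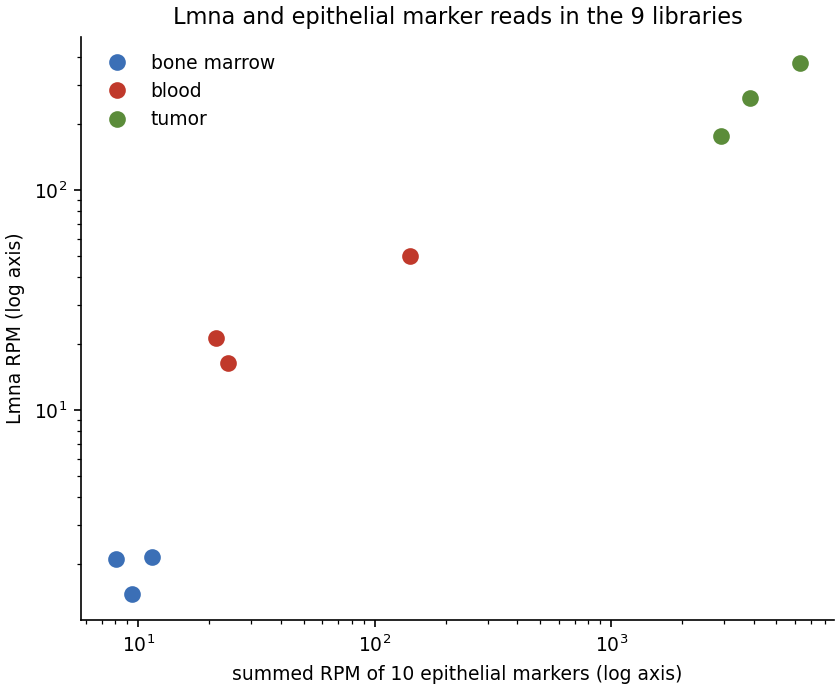
Lmna RPM against the summed RPM of 10 epithelial markers (both axes logarithmic), with 1 point per library coloured by compartment. The tumor points lie at 175 to 376 RPM of Lmna, and the highest blood point, at 50.2, has the most epithelial marker reads in blood (141).

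Lmnb1 (ENSMUSG00000024590.8, chromosome 18, 56707813 to 56753424, plus strand), which encodes lamin B1, varied far less. It had 2554, 1869 and 1782 reads in bone marrow, 2380, 3392 and 2801 in blood and 3293, 4276 and 3181 in tumor, or 2.83 ± 0.26, 3.72 ± 0.01 and 3.44 ± 0.26 as log2 FPKM. Blood was above bone marrow by 0.90 (SE 0.17, adjusted p = 0.00543) and tumor above bone marrow by 0.61 (SE 0.17, adjusted p = 0.0195). The latter call was lost without bone marrow replicate 3, tumor replicate 1 or tumor replicate 2 (adjusted p 0.0639, 0.0617 and 0.0620). Tumor and blood differed by -0.29 (95% interval -0.68 to 0.10, adjusted p = 0.188), and this value turned to 0.16 on plain library totals.

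Lmnb2 (ENSMUSG00000062075.12, chromosome 10, 80901203 to 80918245, minus strand), the gene of lamin B2, was scarcely detected in blood. Its reads numbered 289, 193 and 311 in bone marrow, 11, 3 and 7 in blood and 75, 133 and 115 in tumor. In log2 FPKM the 3 compartments did not overlap, with bone marrow highest and blood lowest. Per 1000 neutrophil marker reads, given below, tumor was highest. Log2 FPKM was 1.27 ± 0.24 in bone marrow and -3.66 ± 1.16 in blood, with tumor between them at -0.22 ± 0.27. Lmnb2 was lower in blood than in bone marrow (log2 fold change -4.92, SE 0.52, adjusted p = 0.00032) and higher in tumor than in blood (3.43, SE 0.52, adjusted p = 0.000766). Without blood replicate 2, the library with 3 reads, these were -4.31 and 2.81. Tumor was lower than bone marrow (-1.49), a call near the threshold (limma adjusted p = 0.0461) that was lost in 11 of 21 alternatives. It was lost when any bone marrow or tumor library or blood replicate 3 was left out, with adjusted p of 0.0609 to 0.129. The call was also lost on plain library totals (-1.04, adjusted p = 0.141). The others were no filter, eBayes without trend and a replicate block (adjusted p 0.0624, 0.0591 and 0.0599).

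The summed level of 15 cell cycle genes had the same order as Lmnb2, with 840 to 1173 RPM in bone marrow, 518 to 805 in tumor and 61.3 to 65.0 in blood. All 15 were lower in blood than in bone marrow and 14 were higher in tumor than in blood, but in tumor against bone marrow 7 were lower and 8 were not called. Lmnb2 reads per 1000 cell cycle reads came to 38.2, 32.3 and 35.2 in bone marrow, 39.2, 6.76 and 19.8 in blood and 19.2, 36.8 and 22.0 in tumor. The part of cycling cells in the Lmnb2 difference was not tested.

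Lbr (ENSMUSG00000004880.10, chromosome 1, 181815335 to 181843046, minus strand) fell in tumor, with no difference detected between bone marrow and blood. It had 9151, 7508 and 8439 reads in bone marrow, 5504, 7332 and 6690 in blood and 2058, 2711 and 2137 in tumor. In log2 FPKM this was 5.58 ± 0.05, 5.63 ± 0.06 and 3.52 ± 0.21. The bone marrow and blood libraries overlapped, with a difference of 0.06 (95% interval -0.21 to 0.33, adjusted p = 0.78), and all tumor libraries lay below them. Lbr was 4.34-fold lower in tumor than in blood (log2 fold change -2.12, SE 0.12, adjusted p = 7.02e-06) and 4.16-fold lower than in bone marrow (-2.06, SE 0.12, adjusted p = 7.45e-06). The exons of Lbr overlap Dnah14 on the other strand, which had 2 to 44 reads per library, and those of Sun2 overlap Gm16575, which had 14 to 84.

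Sun2 (ENSMUSG00000042524.12, chromosome 15, 79724070 to 79742536, minus strand) fell with Lbr in tumor. Its reads were 8192, 8100 and 8492 in bone marrow, 2208, 5431 and 4301 in blood and 1227, 2521 and 2167 in tumor. Log2 FPKM was 6.15 ± 0.12, 5.42 ± 0.44 and 3.83 ± 0.38, and no compartments overlapped. Sun2 was 3.03-fold lower in tumor than in blood (-1.60, SE 0.25, adjusted p = 0.000906) and 4.99-fold lower than in bone marrow (-2.32, SE 0.25, adjusted p = 0.000148). Blood was below bone marrow (-0.72, 95% interval -1.29 to -0.15) without passing the threshold (adjusted p = 0.0619). It passed in 6 of 21 alternatives, limma-voom on the recovered reads among them (adjusted p = 0.0184).

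Sun1 (ENSMUSG00000036817.13, chromosome 5, 139200637 to 139249840, plus strand) did not follow Sun2. Bone marrow libraries held 360, 358 and 363 reads, blood libraries 73, 141 and 122, and tumor libraries 303, 272 and 383, giving log2 FPKM of 0.22 ± 0.13, -1.10 ± 0.27 and -0.16 ± 0.25. Sun1 was lower in blood than in bone marrow (-1.31, SE 0.22, adjusted p = 0.00312) and higher in tumor than in blood (0.93, SE 0.22, adjusted p = 0.00756), the latter not under quantile normalization (0.48, adjusted p = 0.121). Tumor and bone marrow differed by -0.38 (95% interval -0.89 to 0.13, adjusted p = 0.199), and by 0.07 on plain library totals. In log2 FPKM the order bone marrow, tumor, blood was the one seen for Lmnb2.

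The neutrophil markers were also lower in tumor, and member reads were set beside them, a scale chosen after the values were seen. All 9 markers were called lower in tumor than in blood, with a median log2 fold change of -1.83, and Lbr (-2.12), Padi4 (-2.22) and Sun2 (-1.60) fell by similar amounts. Per 1000 neutrophil marker reads, Lbr had 23.7 to 25.5 reads in bone marrow and 30.5 to 34.9 in blood, with 28.1 to 31.2 in tumor, so that tumor and blood overlapped. Sun2 had 22.8 to 25.6, 13.9 to 22.6 and 16.8 to 29.0, and tumor overlapped both other compartments. Padi4 had 32.1 to 38.3, 19.4 to 22.0 and 12.8 to 20.3, with bone marrow above both others and tumor overlapping blood. Lmnb1 had 5.15 to 7.12, 14.1 to 15.0 and 42.4 to 49.2 and did not overlap. Lmnb2 had 0.609 to 0.898, 0.0125 to 0.0691 and 1.025 to 1.53. Sun1 had 1.00 to 1.13, 0.459 to 0.637 and 3.13 to 5.11, so that both were highest in tumor without overlap. Padi2 had 0.06 to 0.110, 0.125 to 0.207 and 0 to 0.164, with tumor overlapping both other compartments. Lmna had 0.0318 to 0.0474, 0.471 to 1.43 and 14.1 to 32.6 and did not overlap. On this scale Lbr, Sun2 and Padi4 in tumor overlapped blood. Against bone marrow, Lbr in tumor lay above without overlap, Sun2 overlapped, and Padi4 alone of the 3 stayed below. The markers are not a fixed scale of the neutrophil share. Of the 9, 2 were called higher and 6 lower in blood than in bone marrow, beside 12.6% and 16.3% of all genes. In tumor against bone marrow 8 were lower, beside 18.4%. Mmp9 had the most marker reads in bone marrow, and Csf3r in blood and tumor. The paper reports less CXCR2 on infiltrating pancreatic neutrophils by flow cytometry, and Cxcr2 is among the markers. The part of the neutrophil share in these differences was not tested.

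**Figure D4:**
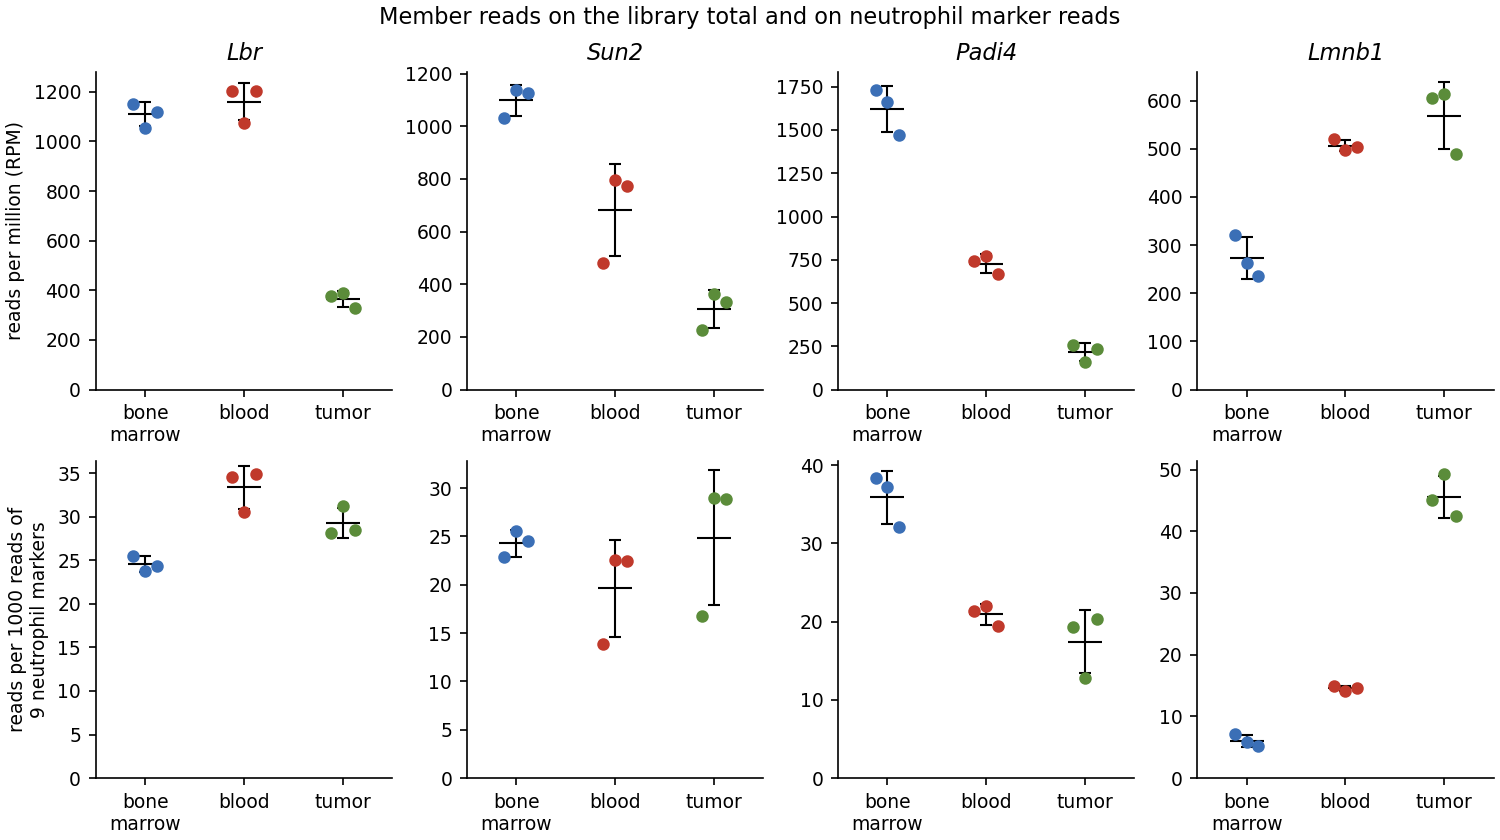
Reads of Lbr, Sun2, Padi4 and Lmnb1 in RPM (top) and per 1000 reads of 9 neutrophil markers (bottom), with points for libraries, bars for means and whiskers for SDs (n = 3). On the upper scale tumor is lowest for the first 3 genes, and on the lower scale tumor and blood overlap for them and Lbr in tumor lies above bone marrow, while Lmnb1 runs from 5.15 to 7.12 in bone marrow to 42.4 to 49.2 in tumor.

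The balance of lamins within a library does not depend on library scaling. Per exonic kilobase, Lmna stood to Lmnb1 at a log2 ratio of -8.13 ± 0.19 in bone marrow, compared with -5.26 ± 0.87 in blood and -2.11 ± 0.72 in tumor (SD, n = 3), so Lmnb1 remained the more abundant transcript in all 9 libraries. Lmna to Lbr was -9.48 ± 0.32, -5.77 ± 0.94 and -0.79 ± 0.67. Neither ratio overlapped between compartments. The exact two-sided permutation p was 0.1 in each of these 6 comparisons, the smallest that 3 against 3 libraries allow, and 0.129 after Benjamini-Hochberg adjustment over 9 ratio comparisons. In tumor replicate 3, which had the most epithelial marker reads, Lmna and Lbr were nearly equal, at 52.8 and 56.5 reads per kilobase of exon and 1000000 scaled reads.

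**Figure D5:**
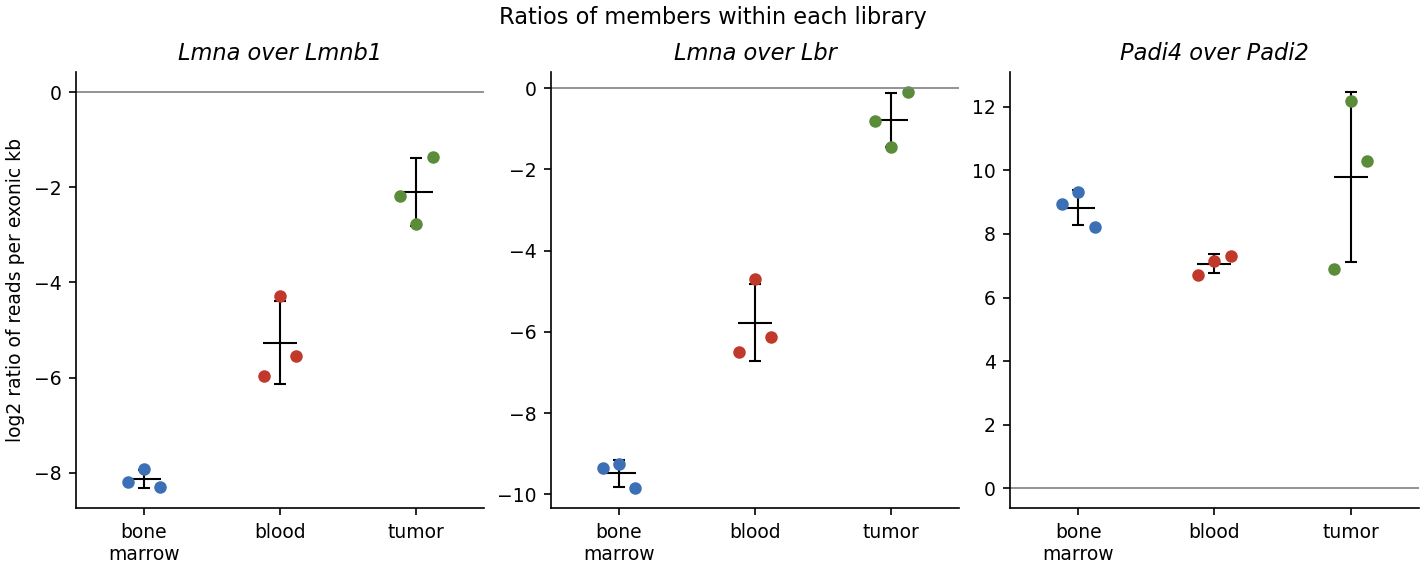
Log2 ratios of reads per exonic kilobase between pairs of members in each library, with bars for means and whiskers for SDs (n = 3). Lmna over Lmnb1 and Lmna over Lbr rise in separate steps from bone marrow to tumor, whereas Padi4 over Padi2 spreads widely in tumor (9.79 ± 2.67), where Padi2 has 12, 0 and 1 reads.

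Padi4 (ENSMUSG00000025330.6, chromosome 4, 140745865 to 140774236, minus strand) was the most abundant member in bone marrow and declined in steps. It had 13755, 11798 and 11100 reads in bone marrow, 3392, 5292 and 3722 in blood and 1412, 1113 and 1522 in tumor. The log2 FPKM values were 6.09 ± 0.18, 4.93 ± 0.13 and 2.71 ± 0.32, and the compartments did not overlap. Padi4 was 2.23-fold lower in blood than in bone marrow (-1.16, SE 0.17, adjusted p = 0.00173), 4.65-fold lower in tumor than in blood (-2.22, SE 0.17, adjusted p = 2.49e-05) and 10.4-fold lower in tumor than in bone marrow (-3.37, SE 0.17, adjusted p = 5.28e-06). All 21 alternatives kept each of the 3 calls.

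Padi2 (ENSMUSG00000028927.6, chromosome 4, 140906344 to 140952586, plus strand), the neighbour of Padi4 on the chromosome, was rare throughout. It had 29, 19 and 38 reads in bone marrow, 33, 38 and 24 in blood and 12, 0 and 1 in tumor. The tumor libraries lay below all others in RPM and log2 FPKM, and replicate 2 allows up to 0.43 RPM with its count of 0. Per 1000 neutrophil marker reads, tumor replicate 1 (0.164) lay above every bone marrow library (0.06 to 0.110). It was within the range of blood (0.125 to 0.207). Over summed reads and scaled library sizes, Padi2 was 11.2-fold higher in blood than in tumor (95% exact counting interval 6.22 to 21.7) and 7.57-fold higher in bone marrow than in tumor (4.20 to 14.8), intervals that cover counting error only. The limma calls were made against blood (adjusted p = 0.011) and bone marrow (adjusted p = 0.0235), and the latter was lost when any bone marrow library or tumor replicate 2 or 3 was left out (adjusted p 0.0522 to 0.0777). The fitted log2 fold change against blood, -4.88, was -6.44 without tumor replicate 1 and -3.56 without tumor replicate 2. Blood and bone marrow overlapped (0.60, 95% interval -2.28 to 3.47, adjusted p = 0.792). The log2 ratio of Padi4 to Padi2 was 8.82 ± 0.55 in bone marrow and 7.07 ± 0.31 in blood, which did not overlap (exact permutation p = 0.1, adjusted 0.129).

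Of the other deiminase genes, Padi3 had 0 to 8 reads per library and was called in no comparison (adjusted p 0.254 to 0.835), although under quantile normalization it was called lower in tumor against bone marrow (-3.81, adjusted p = 0.0183). Padi1 and Padi6 had at most 3 reads in any library. In each of the 9 libraries Padi4 had more reads than all other deiminase genes together.

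The 250 bases before the RefSeq start of 4 members that changed in tumor are given, to set the promoters of the genes that fell beside that of the gene that rose. The RefSeq promoter set (GRCm38.p6) held 7 of the 8 members, without Lmnb1, and 32851 promoters in all. Letters in capitals mark GGGCGG (a GC box), TGANTCA (a loose form of the AP-1 motif, with any base at its centre) and TATAAA on either strand.
Padi4, chr4:140774204-140774453, minus strand: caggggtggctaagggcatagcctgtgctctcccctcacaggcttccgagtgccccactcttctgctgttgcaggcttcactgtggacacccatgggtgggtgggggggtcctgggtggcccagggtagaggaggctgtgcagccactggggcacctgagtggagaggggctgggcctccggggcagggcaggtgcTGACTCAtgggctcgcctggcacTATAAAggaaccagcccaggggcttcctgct
Lbr, chr1:181842402-181842651, minus strand: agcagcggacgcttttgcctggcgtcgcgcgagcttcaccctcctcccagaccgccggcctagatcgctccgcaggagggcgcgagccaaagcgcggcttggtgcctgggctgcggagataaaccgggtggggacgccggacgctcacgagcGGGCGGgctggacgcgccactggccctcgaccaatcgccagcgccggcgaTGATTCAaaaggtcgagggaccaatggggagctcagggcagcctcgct
Sun2, chr15:79742537-79742786, minus strand: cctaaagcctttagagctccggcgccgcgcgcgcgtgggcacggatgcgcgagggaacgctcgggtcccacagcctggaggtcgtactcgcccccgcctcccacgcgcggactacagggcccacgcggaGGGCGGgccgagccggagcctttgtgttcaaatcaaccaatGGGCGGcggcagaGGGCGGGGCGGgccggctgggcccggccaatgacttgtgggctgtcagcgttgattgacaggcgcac
Lmna, chr3:88503353-88503602, minus strand: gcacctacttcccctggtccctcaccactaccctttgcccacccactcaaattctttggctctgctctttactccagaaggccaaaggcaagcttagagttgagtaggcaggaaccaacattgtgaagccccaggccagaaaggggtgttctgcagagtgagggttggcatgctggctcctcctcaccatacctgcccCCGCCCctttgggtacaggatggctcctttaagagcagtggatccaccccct

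The Padi4 promoter held TATAAA 31 bases before the start and TGACTCA 54 bases before it. Of all promoters, 12.4% held TATAAA and 6.75% held TGANTCA. The GENCODE start of Padi4 lies 33 bases further upstream than the RefSeq start. Lbr held TGATTCA 48 bases before its start and 1 GC box. Sun2 held 4 GC boxes, a pair of which share a base, and Lmna held 1, where 32.7% of all promoters held at least 1. Sun2 and Lbr were rich in CpG, with 31 each against a median of 6, while Padi4 had 3 and Lmna 1. RefSeq gives Lmna another promoter, not printed, whose 250 bases held 4 CpG and no GC box. The RefSeq start of the printed Lmna bases, 88503352, lies inside the annotated gene, which reaches upstream to 88509956. Bases before that upstream end were not examined. None of the 4 held ACGTG, TTGCNNAA, GAGGAAGT, TTTGGCGC or TTTCCCGC in these bases, the core motifs of HIF, C/EBP, PU.1 and E2F, which stood in 16.6%, 9.56%, 2.44%, 0.417% and 0.895% of all promoters. Sequence matches describe these letters only.

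Partners of the members showed mixed changes. Over all genes tested, 32.4% were called higher and 20.2% lower in tumor against blood. The shares were 25.2% and 18.4% in tumor against bone marrow, and 12.6% and 16.3% in blood against bone marrow. A list of 16 genes held partners of lamins and SUN proteins together with other genes of the nuclear envelope. Of these 16, 5 were higher and 5 lower in tumor than in blood (median log2 fold change 0.21, against 0.50 over all genes). In tumor against bone marrow 1 was higher and 6 lower (median -0.30). In blood against bone marrow 2 were higher and 6 lower (median -0.11). Tmem43, which encodes the lamin-binding protein LUMA, went with Lbr in tumor. It had 1875, 1575 and 1744 reads in bone marrow, 2738, 5235 and 3717 in blood and 768, 1059 and 1150 in tumor, and was lower in tumor than in blood (log2 fold change -2.56, adjusted p = 5.03e-06). Nrm, the gene of nurim, was lower too (-1.99, adjusted p = 6.2e-05). The 9 neutrophil markers had a median of -1.83 in this comparison, and the part of the neutrophil share was not tested. Syne1, which encodes the nesprin that SUN proteins hold in the outer membrane, had 3405, 3584 and 2997 reads in bone marrow, 290, 352 and 272 in blood and 563, 586 and 507 in tumor. Syne1 was lower than bone marrow in blood (-3.03, adjusted p = 0.000183) and in tumor (-2.78, adjusted p = 0.000108).

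Zmpste24, the protease that cuts prelamin A to lamin A, had the opposite order to Lmna between bone marrow and blood. Its reads were 2905, 2888 and 3285 in bone marrow, 143, 181 and 168 in blood and 604, 543 and 747 in tumor. It was lower in blood than in bone marrow (-3.78, adjusted p = 1.06e-05) and higher in tumor than in blood (1.32, adjusted p = 0.000211). Of the 5 prelamin processing genes, 2 were higher in tumor than in blood, beside 32.4% of all genes. In tumor against bone marrow 1 was lower, beside 18.4% of all genes. In blood against bone marrow 1 was higher and 3 lower, beside 12.6% and 16.3%. Rce1, which trims the farnesylated end, was higher in tumor than in blood by 1.44 (adjusted p = 0.000932), and Icmt, which methylates it, was higher in blood than in bone marrow by 0.79 (adjusted p = 0.028), a call lost in 6 of 21 alternatives (adjusted p 0.0584 to 0.0931).

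Lbr is also a sterol reductase and binds HP1 proteins, and its relatives and partners did not fall with it. Of 5 such genes, 4 were higher in tumor than in blood and 1 was not called (median 1.46), beside 32.4% of all genes higher. In tumor against bone marrow 1 was higher (median 0.78), beside 25.2% of all genes. In blood against bone marrow 3 were lower (median -0.88), beside 16.3%. Dhcr7, a sterol reductase, was higher in tumor than in blood by 1.69 (adjusted p = 0.00204), and this call was lost under quantile normalization (0.71, adjusted p = 0.109). Cbx5 and Cbx3, which encode HP1 proteins, were higher by 4.03 (adjusted p = 0.000194) and 1.13 (adjusted p = 0.00684). Cbx5 had 208, 182 and 199 reads in bone marrow, 14, 38 and 8 in blood and 417, 318 and 524 in tumor.

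Genes linked to trap release had lower medians against bone marrow than against blood. Of 18 such genes, 3 were higher and 6 lower in tumor than in blood (median -0.10), beside 32.4% and 20.2% of all genes. In tumor against bone marrow 2 were higher and 12 lower (median -1.58), beside 25.2% and 18.4%. In blood against bone marrow 2 were higher and 9 lower (median -0.71), beside 12.6% and 16.3%. Elane, Mpo, Prtn3 and Ctsg encode proteases and a peroxidase that neutrophil precursors make for their granules, and were named after their values were seen. Of the 18 genes they fell furthest from bone marrow to tumor. The log2 fold changes were -6.90, -7.64, -5.01 and -8.60 (adjusted p = 0.00308, 0.0037, 1.35e-05 and 0.000405). In blood against bone marrow they were -11.21, -10.76, -4.82 and -10.33, with at most 29 reads of any of these genes in a blood library. Elane alone of the 4 was called higher in tumor than in blood (4.30, adjusted p = 0.0233), with 0, 9 and 0 reads in blood. These 4 are also on a list of 11 immature neutrophil genes, all 11 of which were lower in tumor and in blood against bone marrow, and whose summed level was 80920 to 88630 RPM in bone marrow, compared with 3134 to 3858 for blood and 7138 to 11360 for tumor. The part of immature cells in the trap gene counts was not tested. Selplg, the P-selectin ligand on neutrophils, had 13557, 12081 and 11660 reads in bone marrow, 24474, 37097 and 29622 in blood and 4956, 6432 and 6644 in tumor. It was lower in tumor than in blood (-2.95, adjusted p = 1.94e-06). Ncf4, which encodes the NADPH oxidase subunit p40phox, was lower in tumor than in blood (-1.49, adjusted p = 1.4e-05). Beside these, the 9 neutrophil markers had a median of -1.83, and the part of the neutrophil share was not tested. Of 8 genes of variant and linker histones, 3 were higher and 1 lower in tumor than in blood, beside 32.4% and 20.2% of all genes. Against bone marrow, 1 was higher and 5 were lower in tumor, beside 25.2% and 18.4%. The pair H3f3a and H3f3b, which encode the same histone H3.3, moved apart in tumor against blood, by -1.32 (adjusted p = 0.000958) and 0.97 (adjusted p = 0.000268). H2afx was lower in blood than in bone marrow (-2.31, adjusted p = 0.000265).

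Ordered by reads per kilobase of exon and 1000000 scaled reads (exonic RPKM), bone marrow ran from Padi4 (401 ± 47.8) through Lbr (278 ± 10.3), Sun2 (242 ± 19.8), Lmnb1 (110 ± 19.2), Lmnb2 (9.66 ± 1.53), Sun1 (7.54 ± 0.688) and Padi2 (0.892 ± 0.237) to Lmna (0.391 ± 0.0935). The neighbours Lmnb2 and Sun1 overlapped. Blood ran from Lbr (289 ± 12.3) through Lmnb1 (203 ± 1.70), Padi4 (179 ± 15.97), Sun2 (151 ± 41.4), Lmna (6.03 ± 3.93), Sun1 (3.06 ± 0.547) and Padi2 (1.35 ± 0.323) to Lmnb2 (0.374 ± 0.263). Padi4 overlapped Sun2 there, and Lmna overlapped Sun1. Tumor ran from Lmnb1 (168 ± 29.4) through Lbr (67.2 ± 9.64), Sun2 (49.4 ± 12.5), Lmna (40.0 ± 12.5), Padi4 (39.0 ± 8.33), Sun1 (5.84 ± 0.955) and Lmnb2 (3.43 ± 0.644) to Padi2 (0.137 ± 0.216). Lbr, Sun2, Lmna and Padi4 overlapped in sequence there, each with the next. Lmna moved from the last place in bone marrow to the fourth in tumor, and Padi4 from the first to the fifth.

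Among themselves, the members fell into patterns that are given as a description over 9 libraries sharing 3 compartments. Lbr, Sun2 and Padi4 had Pearson r of 0.90 to 0.94 with each other, and Lmna had -0.80, -0.89 and -0.93 with them. Lmnb2 and Sun1 had 0.86 with each other and -0.80 and -0.81 with Lmnb1. Among 8250 genes with at least 50 reads on average, those most like Lmna were Tmed4 (0.990), F11r (0.989), which encodes the junctional adhesion molecule A, and Ajuba (0.987). The genes most like Lmnb2 were Uhrf1 (0.996), which maintains DNA methylation at replication, Pwp1 (0.991) and Kif20b (0.989), a mitotic kinesin. Those most like Lbr were Cd37, Ifit1bl2 and I830077J02Rik (0.996 to 0.997), and those most like Padi4 were S1pr4 (0.999), Stxbp2 and E2f2 (each 0.996). Sun2 was nearest to Copz1, 6530402F18Rik and Crispld2 (0.992 to 0.994), Sun1 to Bcat2 and Got1 (each 0.986), Lmnb1 to RP24-359O2.7, Parp14 and Litaf (0.976 to 0.984), and Padi2 to Bysl, Ago4 and Tspo (0.965 to 0.987).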

How the data were processed

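Per the labels and the methods of the study, RNA of sorted neutrophils was made into cDNA by the SMARTSeq v2 protocol, and paired reads were mapped to GRCm38 with STAR 2.5.2b and counted on GENCODE genes with featureCounts 1.5.0. The values analysed here are log2 FPKM, which the authors calculated and deposited. Their gene length was the genomic span for 84.5% of the 46005 genes found in GENCODE M21, the source of positions and exon lengths here. Whole reads were recovered from the steps between values for all 46517 genes (tolerance 1e-05), with a constant of 0.25 reads. Whether counting used strand is not given in the sources used here.

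Genes with at least 5 recovered reads in at least 1 library were tested with limma 3.58.1 in R 4.3.3 (eBayes with trend) on the deposited log2 values of all 9 libraries, with Benjamini-Hochberg adjustment at 0.05, after a test on simulated data. Ratios were compared by exact two-sided permutation tests. Fold changes of low genes depend on the constant. Tables and figures were made with Python 3.11.15 and pandas 2.3.3. Reads without molecular identifiers are not independent molecules.

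The members, lists and markers were chosen with earlier results of these data known. All members are named, together with the 3 genes of lowest adjusted p in any comparison from each of 6 lists, the other deiminases and, for each member, the 3 genes of highest correlation among those with a mean of at least 50 reads. Of the genes this rule names, 2 are not reported here. The paper describes 3 independent experiments and compares tumor neutrophils with those of the other compartments of the same mouse. The labels do not state that libraries of equal number share mice. Deviations of the 9 same-numbered pairs correlated at -0.143 to 0.0787, so the libraries were treated as unpaired. Pools of an experiment may thus be matched in a way that the main fit does not use. The alternatives were other filters and constants, quantile normalization, plain totals, other eBayes settings, limma-voom on the recovered reads, a replicate block, only the compartments compared, and each library left out.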

Additional observations from a re-analysis of the deposited data

How the results depend on the processing

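Each comparison was recomputed under 21 alternatives, 9 of which leave out a library. Requiring a log2 FPKM over 0 in 3 libraries gave 4880 genes called in tumor against blood (9314 as reported) and 4311 in tumor against bone marrow (7734 as reported), since fewer genes were tested, Padi2 not among them. In tumor against bone marrow, 1 member in place of 2 was higher under eBayes without trend and with only these 2 compartments, since Lmnb1 lost its call. With 1 library left out, 1 to 2 members were higher and 3 to 5 lower in tumor against bone marrow. Tumor against blood stayed at 3 higher and 4 lower, and blood against bone marrow at 2 and 3, in each of these 9 fits. The difference in Lmnb1 between tumor and blood became 0.02 under quantile normalization and 0.16 on plain totals, that in Sun1 between tumor and bone marrow 0.07 on plain totals, and that in Lbr between blood and bone marrow -0.14 under quantile normalization; none of these passed the threshold. The log2 ratio of Padi4 to Padi2 was higher in tumor than in blood by 2.66 and became -1.10 with 0.1 added to FPKM (1.51 to 4.08 with a library left out). Against bone marrow the difference of 0.91 became -2.57 with that constant, and -0.24 to 2.33 with a library left out (-0.24 without tumor replicate 2).

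With a replicate block, as if libraries of equal number were paired, Lmnb2 lost its call in tumor against bone marrow (adjusted p = 0.0599) and Sun2 gained one in blood against bone marrow (adjusted p = 0.0144), and 9069, 7468 and 4821 genes were called. The calls of Lmna, Lbr, Sun2 and Padi4 in tumor against both other compartments held under these 21 alternatives, none of which scales to neutrophil markers. Per 1000 neutrophil marker reads, Lbr in tumor lay above bone marrow (28.1 to 31.2 against 23.7 to 25.5), Sun2 overlapped both other compartments and Padi4 overlapped blood. Lmnb2 and Sun1 in tumor also lay above bone marrow on that scale. Few reads limit Padi2, Lmnb2 in blood and Lmna in bone marrow.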

Other observations

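Nuclear pore genes, which the members do not include, moved as a larger group. Of 28 such genes, 22 were higher in tumor than in blood and 6 were not called, beside 32.4% of all genes higher. The median log2 fold change was 1.29 against 0.50 over all genes. Between blood and bone marrow, 16 were lower in blood and 1 higher (median -0.91), beside 16.3% and 12.6% of all genes. Between tumor and bone marrow, 6 were higher, 1 was lower and 21 were not called, beside 25.2% of all genes higher and 18.4% lower. The median there was 0.32 against 0.29 over all genes. Seh1l, a subunit of the outer ring of the pore, had 186, 94 and 143 reads in bone marrow, 61, 109 and 109 in blood and 822, 1280 and 1286 in tumor, and was higher in tumor than in blood by 3.0 (limma adjusted p = 2.67e-05) and than in bone marrow by 2.83 (adjusted p = 4.11e-05). Nup85, of the same ring, and Nup93, of the inner ring, were higher in tumor than in blood by 2.80 (adjusted p = 0.000179) and 4.19 (adjusted p = 0.00019), and lower in blood than in bone marrow, at -2.24 (adjusted p = 0.00147) and -2.92 (adjusted p = 0.00297). The epithelial and cell cycle markers were also higher in tumor than in blood, and their part in this was not tested.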
